A study of Homo sapiens with 4 samples.

Results

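The genes described here are 10 genes widely used as transcriptional targets of the WNT pathway, namely AXIN2, LGR5, ASCL2, NKD1, RNF43, ZNRF3, NOTUM, TCF7, LEF1 and SP5. They were taken by name from a fixed list, and all 10 were found among the 20163 protein-coding genes of the GENCODE annotation placed on hg19. Acetylation of histone H3 at lysine 27 (H3K27ac), a mark of active promoters and enhancers, had been mapped by ChIP-seq in 4 human cancer cell lines. COLO-205 is labelled as a colon cancer line, DU-145 as a prostate cancer line, and OVCAR-3 and SKOV-3 as ovarian cancer lines. The labels give no treatment or genetic change for any of them, and each was profiled in 1 library, so that a difference between lines cannot be told apart from a difference between libraries and no test between lines was possible. H3K27ac is a property of chromatin, and RNA was not analysed here.

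WNT ligands act by keeping beta-catenin from being degraded. Beta-catenin then enters the nucleus, where TCF and LEF proteins hold it at DNA with a core close to CTTTGAT, and the genes next to such sites are switched on. Many of these targets feed back on the pathway, and in the intestine the pathway sustains the stem cells at the base of the crypt. Among the 10 genes, AXIN2, NKD1, RNF43, ZNRF3 and NOTUM encode inhibitors of the pathway, LGR5 encodes a receptor, and ASCL2, TCF7, LEF1 and SP5 encode transcription factors.

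For each gene, a promoter peak is a called H3K27ac peak within 1 kb of any of its annotated transcript starts. A distal peak lies within 50 kb of the gene body and farther than 1 kb from the transcript starts of every protein-coding gene. Assignment of distal peaks to these genes was by distance alone, and peaks at the starts of neighbouring genes were counted apart. The 10 genes together had 22 promoter and 149 distal peaks in COLO-205. DU-145 had 10 and 22 of them, OVCAR-3 had 10 and 45, and SKOV-3 had 2 and 1.

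The COLO-205 distal peak of RNF43 at chr17:56441997-56442423 (hg19) was the only one of the 149 distal peaks of the 10 genes in that line with the letters CTTTGAT within 100 bp of its summit, and its 201-base summit window is shown for that reason. It lies in an RNF43 intron, 52.6 kb downstream of the canonical start, and held no call in the other 3 lines. The window is chr17:56442164-56442364, written 5′ to 3′ on the plus strand with the core in capitals.
RNF43 intronic window: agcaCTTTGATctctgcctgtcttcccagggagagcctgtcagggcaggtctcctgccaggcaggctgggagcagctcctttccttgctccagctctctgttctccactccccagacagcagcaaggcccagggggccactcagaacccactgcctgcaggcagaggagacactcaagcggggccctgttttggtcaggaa
The core stands near the left end of the window, 93 bp from the summit.

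SP5 was the only one of the 4 genes with an entry in the RefSeq promoter table (RNF43, TCF7, LEF1 and SP5) that held this core before a start. The 250 bases before the SP5 start are shown, read from RefSeq (GRCh38.p14) and matched exactly once to hg19 at chr2:171571597-171571846, plus strand, with the core in capitals.
SP5 promoter: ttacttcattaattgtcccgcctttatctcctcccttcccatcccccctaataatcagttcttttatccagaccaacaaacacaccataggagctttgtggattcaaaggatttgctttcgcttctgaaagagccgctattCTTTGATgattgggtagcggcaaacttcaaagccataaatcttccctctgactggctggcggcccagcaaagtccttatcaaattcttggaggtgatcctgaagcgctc
The core begins 109 bases before the start. None of these 250 bases lay under a COLO-205 peak, although 2 COLO-205 peaks flanked them, at chr2:171570209-171571382 and chr2:171571856-171572604. In DU-145, 48 of the 250 bases lay under a peak. The same letters occur in 2.62% of the 35116 promoters of that table.

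Further COLO-205 distal peaks had the core within 250 bp of the summit but outside the narrow central window, and in most cases beyond the edge of the called peak. Those outside exons are shown as 29-base stretches, read 5′ to 3′ on the named strand with the core in capitals, to show how the flanking letters vary. They were added after the first search had been read.
TCF7 chr5:133426465-133426493 (plus strand): cttccttcaggCTTTGATctccatgcaac
TCF7 chr5:133424690-133424718 (plus strand): ccctttgcctaCTTTGATgccctaattct
ZNRF3 chr22:29426863-29426891 (plus strand): tggcttcagcgCTTTGATctcctgccagg
ZNRF3 chr22:29386242-29386270 (plus strand): ttaaaatctttCTTTGATattctagttcg
RNF43 chr17:56500396-56500424 (minus strand): gtgtatattcaCTTTGATccctttgacac
ASCL2 chr11:2256657-2256685 (minus strand): ctgcgggcatcCTTTGATccatgtttcaa
NOTUM chr17:79958815-79958843 (minus strand): gcagacccagcCTTTGATcaggagcggcc
Their peaks had −log10 q values from 5.67 at NOTUM to 18.4 at the first TCF7 site, where q is the false discovery rate given by the peak caller. The peaks of both ZNRF3 sites and of the NOTUM site were also called in OVCAR-3.

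The strongest distal peak of the 10 genes in COLO-205 was the ASCL2 peak downstream of the gene, and it is shown because OVCAR-3 held its own strongest member peak outside promoters at the same place. The window is the COLO-205 summit with 100 bases on either side, chr11:2278516-2278716, plus strand.
ASCL2 downstream window: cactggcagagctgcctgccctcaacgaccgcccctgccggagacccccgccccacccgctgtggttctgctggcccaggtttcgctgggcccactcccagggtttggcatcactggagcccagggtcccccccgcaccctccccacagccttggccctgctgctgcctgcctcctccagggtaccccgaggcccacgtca
It held neither the TCF/LEF core nor the AP-1 letters TGANTCA, and 71.6% of its bases were G or C.

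The lists differed in length, with 14001 peaks in SKOV-3 beside 75468, 76093 and 85576 in DU-145, OVCAR-3 and COLO-205, and the estimated number of ChIP tags ran from 22400000 in SKOV-3 to 36000000 in DU-145. Fewer peaks at a gene in SKOV-3 are therefore read here as not called, never as absent. Promoter peaks were seen in COLO-205 at 4 of 6 colon epithelial marker genes (not at CDX1 and CDH17), in DU-145 at the prostate marker TMPRSS2 but not at KLK3, KLK2 and HOXB13, in OVCAR-3 at 6 of 6 ovarian markers and in SKOV-3 at 2 of 6, PAX8 and SOX17. The colon list was called at 1 of 6 in DU-145, 1 of 6 in OVCAR-3 and 0 of 6 in SKOV-3. The ovarian list was called at 4 of 6 in COLO-205 and 3 of 6 in DU-145, both more than in SKOV-3. Over all genes, 51.1%, 59.8%, 60.5% and 31.6% had a promoter peak in COLO-205, then DU-145, OVCAR-3 and SKOV-3. Of the prostate markers, KLK3 and KLK2 had a promoter peak in COLO-205 alone. The copy number of the loci in these lines was not analysed here, and its part in the results was not tested.

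COLO-205 held a promoter peak at 8 of the 10 genes, AXIN2, ASCL2, NKD1, ZNRF3, NOTUM, TCF7, LEF1 and SP5. Over all protein-coding genes the share with a promoter peak was 51.1% in that line. In DU-145 the count was 5 of 10 (AXIN2, NKD1, NOTUM, TCF7 and SP5) beside 59.8% of all genes, and in OVCAR-3 it was also 5 (AXIN2, ZNRF3, NOTUM, TCF7 and LEF1) beside 60.5%. In SKOV-3 only AXIN2 and ZNRF3 were called, 2 of 10 beside 31.6%. The members' share was thus above that of all genes in COLO-205 and below it in the other 3 lines, with 10 genes behind each share.

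With lists of equal length, the share was again above that of all genes in COLO-205 and below it in the other lines. When each list was held to its 14001 peaks of lowest q, 5 members kept a promoter peak in COLO-205 (AXIN2, ASCL2, ZNRF3, TCF7 and SP5) against 21.8% of all genes. DU-145 kept 1, AXIN2, against 37.8%, OVCAR-3 kept AXIN2 and ZNRF3 against 37.9%, and SKOV-3 had the same 2 genes against 31.6%. Counting only the canonical start of each gene gave 7 members in COLO-205 against 44.7% of all genes, 5 in DU-145 against 56.1%, 4 in OVCAR-3 against 56.7% and 2 for SKOV-3 against 29.0%, where all starts were kept for the 282 genes with no canonical one.

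**Figure D1:**
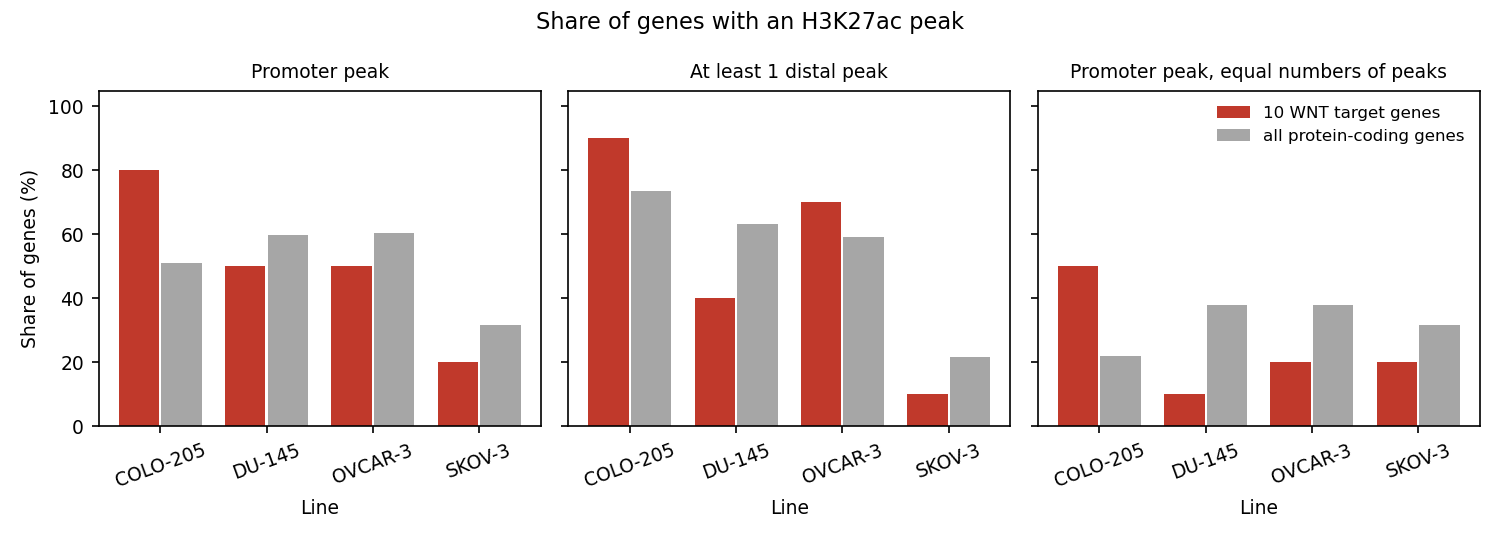
Share of the 10 WNT target genes (red) and of all 20163 protein-coding genes (grey) with an H3K27ac peak in each line, in percent; the panels give promoter peaks, distal peaks and promoter peaks with 14001 peaks kept per list. The red bar is above the grey one in COLO-205 in each panel (8 of 10 against 51.1% for promoters), and above it elsewhere only for distal peaks of OVCAR-3.

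AXIN2 was the only member with a promoter peak in all 4 lines, a state shared by 25.2% of all genes. LGR5 and RNF43, 2 of 10, had a promoter peak in none of them, beside 25.0% of all genes. ASCL2, 1 of 10, had one in COLO-205 and nowhere else, beside 6.16% of all genes. Promoter peaks covered more bases in COLO-205 than in each other line at 6 of the 10, AXIN2, ASCL2, NKD1, TCF7, LEF1 and SP5, against 11.3% of all genes. The median number of promoter bases under a peak in COLO-205 was 1456.5 over the members and 214 over all genes, whereas in DU-145 it was 160 against 529 and in OVCAR-3 120 against 435.

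AXIN2 encodes a scaffold of the complex that marks beta-catenin for degradation. It lies at chr17:63524681-63557766, minus strand. Its strongest promoter peak stood on 178 tags at the summit in OVCAR-3, 87 in COLO-205, 72 in DU-145 and 34 for SKOV-3. Scaled to 1000000 tags of the library, these levels were 5.20, 2.92, 1.997 and 1.52, so OVCAR-3 was the highest and SKOV-3 the lowest. Levels below are scaled in the same way. The COLO-205 level was 0.561 of that in OVCAR-3 (95% exact interval 0.429 to 0.729), 1.46 times that in DU-145 (1.06 to 2.03) and 1.92 times that in SKOV-3 (1.28 to 2.95). These intervals and the others below cover counting error only. COLO-205 had the widest AXIN2 promoter peak all the same, 2537 bp against 1365 bp for OVCAR-3, 749 bp for DU-145 and 329 bp for SKOV-3. Its summit in COLO-205 lay 1.52 kb inside the gene, and in the other 3 lines between 0.206 and 0.233 kb from the canonical start.

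NKD1 encodes a protein that binds Dishevelled and dampens the signal, and it lies at chr16:50582307-50683160, plus strand. Promoter peaks were called in COLO-205 and DU-145 and in neither ovarian line. In DU-145 the peak upstream of the first start had 40 tags, a fold enrichment of 4.57 and −log10 q of 13.3. COLO-205 had 2 peaks at that start, with −log10 q of 7.87 and 6.13, and its strongest NKD1 promoter peak, with −log10 q of 10.5, lay at an internal start 76.4 kb downstream. At the first start, the strongest peak had a scaled level of 1.17 in COLO-205 (0.818 to 1.63). In DU-145 it was 1.11 (0.793 to 1.51), and these intervals overlap. The peaks themselves do not, since that of COLO-205 lay downstream of the start and that of DU-145 upstream. The levels are therefore not those of one place.

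RNF43 and ZNRF3 encode related membrane ubiquitin ligases that remove Frizzled receptors from the cell surface. RNF43 (chr17:56431037-56494956, minus strand) had no promoter peak in any line. The nearest COLO-205 peak lay 1044 bp from a start of an RNF43 transcript, just outside the 1-kb limit, and it is the peak whose window is printed above. In DU-145 and OVCAR-3 the nearest peaks lay 10403 and 10371 bp away, and in SKOV-3 the distance was 356412 bp.

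ZNRF3 (chr22:29279560-29453476, plus strand) had a promoter peak at its first start in 3 lines, with 54 tags in COLO-205, 87 in OVCAR-3 and 22 in SKOV-3. Scaled, these were 1.81, 2.54 and 0.982. COLO-205 stood at 0.713 of OVCAR-3 (0.498 to 1.01) and at 1.84 times SKOV-3 (1.10 to 3.18), so that the first of these intervals includes 1 and the second does not. In DU-145 no ZNRF3 promoter peak was called, and the nearest peak lay 43956 bp from a start.

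NOTUM, a secreted enzyme that strips the lipid from WNT ligands, lies at chr17:79910383-79919716 on the minus strand. Its promoter peaks were weak, with 29 tags in COLO-205, 30 in DU-145 and 28 in OVCAR-3. The −log10 q values were 8.04, 6.40 and 7.63. COLO-205 stood at 1.17 times DU-145 (0.677 to 2.02), an interval that includes 1. The OVCAR-3 peak did not overlap the COLO-205 peak, since its summit lay upstream of the canonical start and that of COLO-205 lay 0.475 kb downstream. No promoter peak of NOTUM was called in SKOV-3.

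LGR5, a receptor for R-spondins and a marker of intestinal stem cells, lies at chr12:71833578-71980090 on the plus strand. It had no promoter and no distal peak in any of the 4 lines, as had 7.34% of all genes, and it was the 1 member of 10 in that state. From its starts the nearest peak was 62564 bp away for COLO-205, 86394 bp for DU-145, 91734 bp for OVCAR-3 and 91942 bp for SKOV-3.

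ASCL2 encodes a basic helix-loop-helix factor of intestinal stem cells and lies at chr11:2289728-2291818, minus strand. In COLO-205 a peak of 4591 bp covered the whole gene and its start, with 79 tags at the summit, a scaled level of 2.65 (2.099 to 3.30), a fold enrichment of 9.47 and −log10 q of 47.9. That placed it in the strongest 0.908% of the COLO-205 list. In DU-145 the nearest peak lay 1097 bp from the start, just outside the limit, with a fold enrichment of 2.30 and −log10 q of 3.36, close to the weakest call of that list. OVCAR-3 and SKOV-3 had no peak within 12775 and 89280 bp of the start.

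TCF7 and LEF1 encode HMG-box factors that bind beta-catenin. TCF7 (chr5:133450372-133487556, plus strand) has 21 annotated starts. COLO-205 had 7 promoter peaks there that covered 4348 bp, DU-145 had 5 covering 2340 bp, OVCAR-3 had 1 of 240 bp and SKOV-3 had none. Tags at the strongest of them numbered 72 in COLO-205, 57 in DU-145 and 24 in OVCAR-3, or 2.42, 1.58 and 0.701 when scaled. In COLO-205 and DU-145 the strongest peaks lay at the first start on opposite sides of it and did not overlap. Both lines had a peak on each side. Just upstream the scaled level was 1.91 in COLO-205 (1.45 to 2.48) and 1.58 in DU-145 (1.198 to 2.05), with intervals that overlap, and just downstream it was 2.42 (1.89 to 3.04) and 0.915 (0.630 to 1.29), with intervals that do not. The OVCAR-3 peak lay at an internal start 24.4 kb downstream, where COLO-205 had a peak with 25 tags and DU-145 one with 34. The scaled levels there were 0.839 (0.543 to 1.24) in COLO-205 and 0.943 (0.653 to 1.32) in DU-145. In OVCAR-3 the level was 0.701 (0.449 to 1.04), and these intervals overlap.

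LEF1 (chr4:108968701-109090112, minus strand) had weak promoter peaks in COLO-205, with 22 tags and −log10 q of 8.71, and in OVCAR-3, with 19 tags and −log10 q of 4.99. The ratio of the 2 levels was 1.33 (0.687 to 2.60), an interval that includes 1. Neither COLO-205 peak reached within 1 kb of the canonical LEF1 start. No LEF1 promoter peak was called in DU-145 or SKOV-3.

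SP5 encodes a zinc finger repressor and lies at chr2:171571847-171574588, plus strand. COLO-205 had 3 promoter peaks covering 2459 bp, and DU-145 had 2 covering 1242 bp. The strongest stood upstream of the start in both lines, with 66 tags in COLO-205 and 43 in DU-145, or 2.21 and 1.19 when scaled. The COLO-205 level was 1.86 times the other (1.25 to 2.79). Neither ovarian line had an SP5 promoter peak, and the nearest calls lay 22125 bp away in OVCAR-3 and 213209 bp away in SKOV-3.

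**Figure D2:**
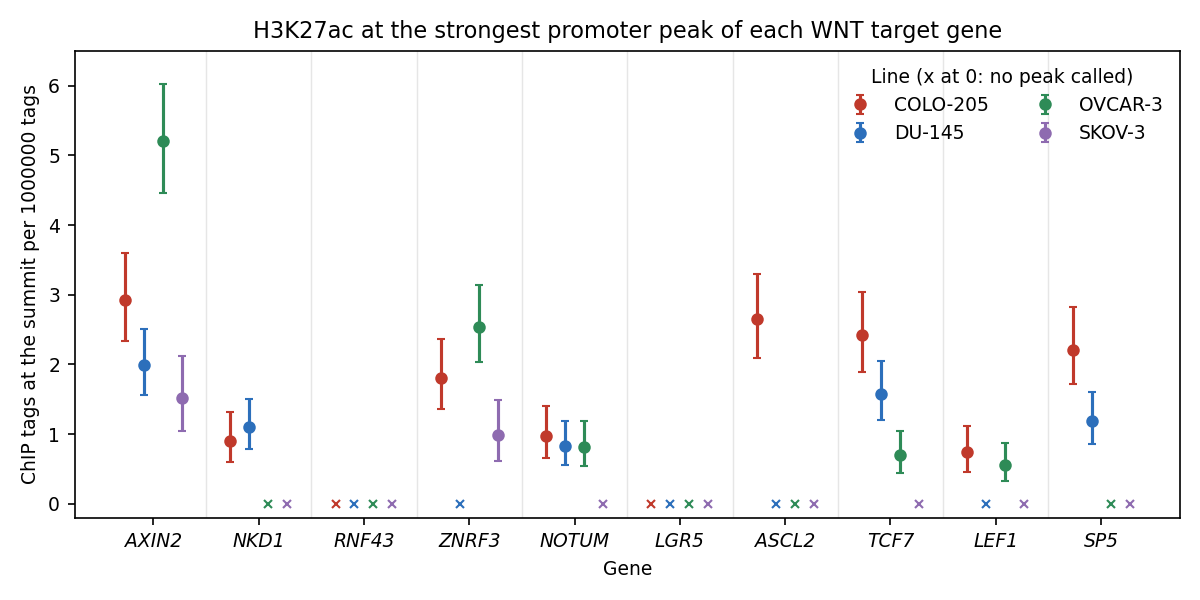
ChIP tags at the summit of the strongest promoter peak of each gene, per 1000000 tags of the library, in the 4 lines (1 library each); bars are 95% exact Poisson intervals for counting error, and a cross at 0 marks a gene with no peak called. The strongest peaks of NKD1, NOTUM and TCF7 lie at different places in some lines. AXIN2 in OVCAR-3, at 5.20, is the highest point, and ASCL2 has a point in COLO-205 alone.

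Distal peaks showed the wider spread between lines. At least 1 distal peak was found at 9 of the 10 genes in COLO-205 (73.6% of all genes), at 4 in DU-145 (63.4%), at 7 in OVCAR-3 (59.2%) and at 1 in SKOV-3 (21.8%). At least 10 distal peaks were found at 7 of the 10 in COLO-205, AXIN2, ASCL2, NKD1, RNF43, ZNRF3, NOTUM and TCF7, against 15.8% of all genes. The median gene of the 10 had 13 distal peaks in COLO-205, against 2 for all genes, and 0 in DU-145, 2.5 in OVCAR-3 and 0 for SKOV-3, against 2, 1 and 0. Scaled to the length searched, the COLO-205 medians were 9.15 and 1.48 peaks per 100 kb. AXIN2, RNF43 and NOTUM lie on chromosome 17, whose peak density in COLO-205 was 2.78 times that of the median chromosome, and ZNRF3 on chromosome 22, at 1.77 times. For TCF7, NKD1 and ASCL2 the chromosome stood at 1.36, 1 and 0.911 times the median in COLO-205. The same chromosomes stood at 1.33, 1.17 and 0.995 times in DU-145. In OVCAR-3 they stood at 0.580, 0.558 and 1.54 times, and in SKOV-3 at 0.769, 1.43 and 1.23 times. The part of chromosome-wide density in the distal counts, and in their differences between lines, was not tested.

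At 6 of the 10 genes, AXIN2, ASCL2, NKD1, RNF43, TCF7 and SP5, COLO-205 had more distal peaks than each other line, as it had at 32.2% of all genes. COLO-205 had 21 at AXIN2, OVCAR-3 had 5 and the other lines 0. At ASCL2 it had 28, against 3 in OVCAR-3, 1 in DU-145 and 0 for SKOV-3. At TCF7 it had 37, against 14 in DU-145 and 0 in both ovarian lines. These 3 genes held the densest COLO-205 sets, with 15.8, 27.4 and 26.97 peaks per 100 kb, and 95.5%, 98.7% and 98.7% of all genes had fewer.

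NKD1 had 19 in COLO-205, 5 in DU-145 and 0 in both ovarian lines. RNF43 had 15 in COLO-205, 2 in OVCAR-3 and 0 in the rest, and SP5 had 6 and 1 in the same lines and 0 in the rest. RNF43, with no promoter peak, was thus among the members with many distal peaks in COLO-205. The order differed at the other genes. OVCAR-3 was ahead of COLO-205 at ZNRF3, with 13 against 11, at NOTUM, with 13 against 10, and at LEF1, with 8 against 2. DU-145 had 2 at ZNRF3 and 0 at the others, and SKOV-3 had 1 and 0. LGR5 had 0 in all 4 lines.

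**Figure D3:**
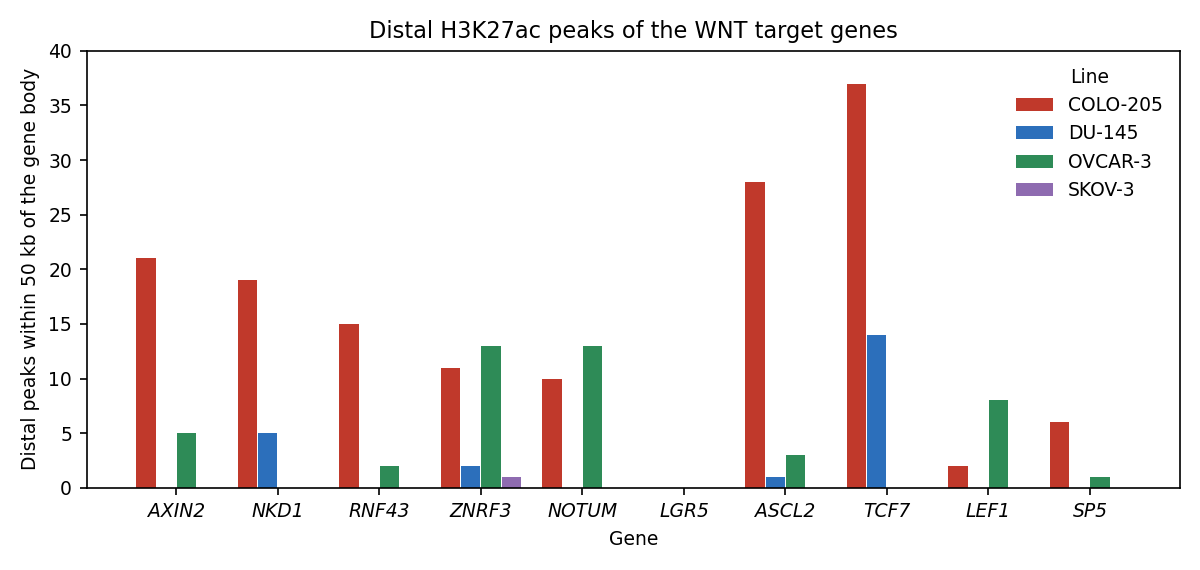
Number of distal H3K27ac peaks within 50 kb of the body of each gene in the 4 lines, 1 library per line. COLO-205 is highest at 6 genes, with 37 peaks at TCF7 and 28 at ASCL2, and OVCAR-3 is highest at ZNRF3, NOTUM and LEF1.

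The distal peaks of the members were mostly narrow and of modest strength. Their median width was 253 bp in OVCAR-3, 300 bp in COLO-205 and 343 bp in DU-145. In COLO-205, DU-145 and OVCAR-3, median levels at the summit were 0.872, 0.652 and 0.789 scaled tags, beside a local background of 0.163, 0.155 and 0.174. The median −log10 q was 8.68, 6.52 and 7.61 in these lines, where the medians of the whole lists were 8.35, 9.17 and 11.05. In COLO-205, 52 of the 149 distal summits lay in no annotated gene, 36 in introns of the members, 9 in their exons, 25 in introns of other coding genes and the rest in other genes or non-coding introns. Peaks at neighbouring genes' starts numbered 39 in COLO-205, and 25 of them lay around NOTUM, where MAFG, SIRT7, PCYT2, PYCR1 and ASPSCR1 crowd the window.

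The strongest distal peak of ASCL2 was at chr11:2278414-2278964 in COLO-205 and at chr11:2278405-2279043 in OVCAR-3, about 13.2 kb downstream of the start in both lines and in no annotated gene. It had 56 tags and −log10 q of 29.5 in COLO-205 and 106 tags and −log10 q of 81.8 in OVCAR-3. The scaled levels were 1.88 (1.42 to 2.44) and 3.10 (2.54 to 3.75). OVCAR-3 was therefore the higher of the 2 at this region although it had no peak at the ASCL2 start. COLO-205 alone carried both.

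At AXIN2 the strongest distal peaks of COLO-205 and OVCAR-3 also overlapped, at chr17:63511668-63511977 and chr17:63511593-63511891, in no gene and 46.0 kb downstream of the start. They had 36 and 29 tags, with −log10 q of 18.3 and 13.3. At TCF7 the strongest COLO-205 distal peak was upstream, at chr5:133423676-133424245, with −log10 q of 22.6 and a fold enrichment of 8.91, and no other line had a call there. The strongest one in DU-145 was at chr5:133499723-133500004, downstream of the gene, with −log10 q of 8.90.

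NKD1 had its strongest distal peak in COLO-205 inside an intron, at chr16:50637070-50637412 with −log10 q of 15.9, and in DU-145 at chr16:50699627-50700047 with 8.31, in an exon of a non-coding gene beyond the NKD1 end. For RNF43 the COLO-205 peak was at chr17:56415074-56415979, with 57 tags and −log10 q of 23.01, and the OVCAR-3 peak was at chr17:56421804-56422023 with 22 tags and 7.52. Both lay in introns of the non-coding gene TSPOAP1-AS1. For NOTUM the OVCAR-3 peak was the stronger, 2083 bp wide at chr17:79948944-79951026 in an ASPSCR1 intron with 74 tags, and the COLO-205 peak at chr17:79906582-79907250 had 32.

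The strongest distal peak of LEF1 in COLO-205 was intronic, at chr4:109002456-109002734 with 26 tags, and in OVCAR-3 it lay in an intron of the neighbour HADH, at chr4:108929393-108929595 with 22 tags. For SP5 it was 20.0 kb upstream in COLO-205, at chr2:171551725-171551967 with 23 tags, and 22.99 kb downstream in OVCAR-3, at chr2:171594677-171594942 with 19. These were all low counts. The LEF1 and SP5 peaks lay at different places in COLO-205 and OVCAR-3, and none was called in the other line, so their levels are not compared. For ZNRF3 it was at chr22:29467068-29467857 in COLO-205, with 41 tags and −log10 q of 16.0, and at chr22:29426524-29426805 in OVCAR-3, with 49 tags and 18.4. In DU-145 and SKOV-3 it was part of the region common to all lines that is described next.

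**Figure D4:**
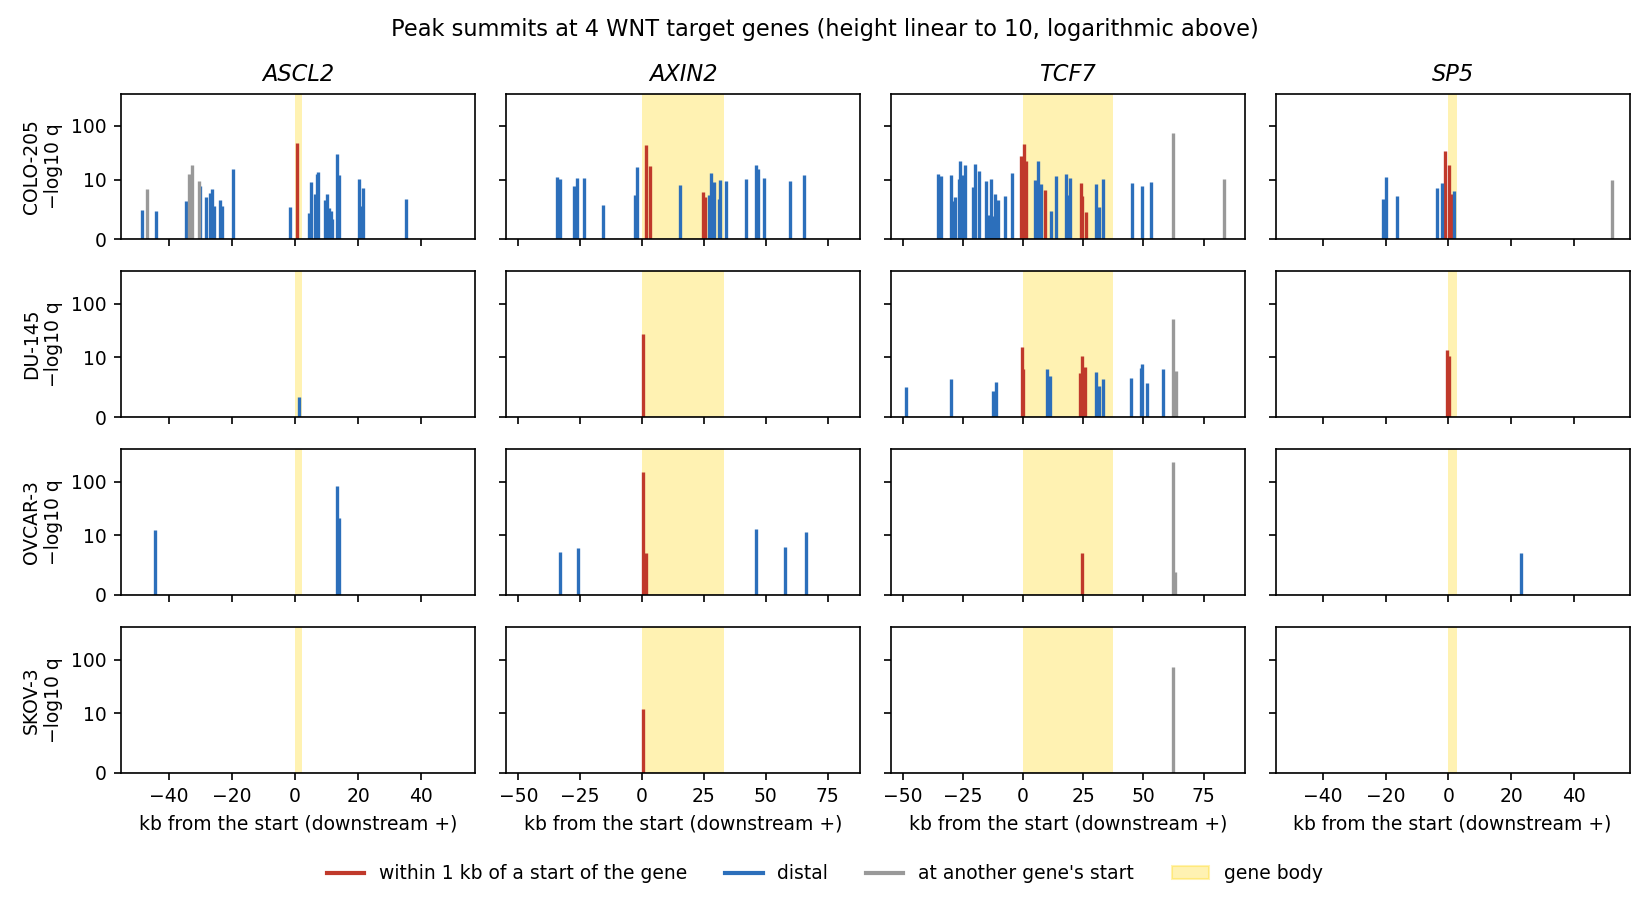
Summit positions of all called peaks around ASCL2, AXIN2, TCF7 and SP5 in each line, as distance in kb from the canonical start (downstream positive), with −log10 q as height (linear to 10, logarithmic above); red marks promoter peaks, blue distal peaks, grey peaks at other genes' starts and yellow the gene body. COLO-205 fills the flanks of ASCL2, AXIN2 and TCF7, and the OVCAR-3 row shows the ASCL2 peak 13.2 kb downstream with no red line at the start.

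Joining peaks of the 4 lines that overlapped gave 191 regions with a distal peak at the 10 genes. Of these, 125 were called in COLO-205 alone, 28 in OVCAR-3 alone and 11 in DU-145 alone. COLO-205 shared 14 with OVCAR-3 only and 9 with DU-145 only. The 7 shared regions of TCF7 were all of COLO-205 with DU-145, and the 3 shared regions of AXIN2 were all of COLO-205 with OVCAR-3.

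The regions of COLO-205 alone can be read beside its whole list. For that line, 83.9% of the members' distal peaks overlapped no peak of another line, and so did 84.1% of all its distal peaks. In DU-145 the shares were 50% of the 22 member peaks and 74.2% of all, and in OVCAR-3 62.2% of the 45 and 71.4%. The 2 COLO-205 shares are close, whereas its median number of distal peaks per gene was 13 for the members and 2 for all genes.

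A single region was called in all 4 lines, chr22:29427307-29428179 in an intron of ZNRF3, 148.2 kb downstream of the start. It covers the start of the non-coding gene ZNRF3-AS1, and SKOV-3 had 0 distal peaks at the 10 genes once non-coding starts were counted as well. Tags at the summit numbered 57 in OVCAR-3, 54 in DU-145, 43 for COLO-205 and 33 for SKOV-3. The scaled levels were 1.67, 1.498, 1.44 and 1.47, which lie close together in all lines. The SKOV-3 summit window is shown as the one distal peak of that line, chr22:29427641-29427841, plus strand.
ZNRF3 intronic window: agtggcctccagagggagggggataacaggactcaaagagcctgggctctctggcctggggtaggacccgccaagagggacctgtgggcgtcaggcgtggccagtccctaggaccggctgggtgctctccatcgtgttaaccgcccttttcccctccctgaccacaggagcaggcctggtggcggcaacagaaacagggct
None of the 4 summit windows of this region held the TCF/LEF core. Regions of exactly 3 lines numbered 2, both near NOTUM, at chr17:79883044-79883256 and chr17:79884065-79884282. Both were distal in 1 line only and overlapped peaks at the start of a neighbouring gene in the others.

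The letters CTTTGAT, on either strand, were found within 100 bp of the summit in 1 of the 149 distal peaks of the members in COLO-205, or 0.671% (exact 95% interval 0.0170 to 3.68), against 0.770% of all distal peaks of that line. None of 22 windows held them in DU-145 (upper limit 15.4%), none of 45 in OVCAR-3 (7.87%) and not the 1 window of SKOV-3, against 1.01%, 0.931% and 1.196% of all. The AP-1 letters TGANTCA, which can overlap that core by the letters TGAT, were in 1 of 149 windows in COLO-205 against 2.83% of all, in 1 of 22 in DU-145 against 4.55%, and in none of 45 in OVCAR-3 against 4.23%. A match is a string of letters and not a bound site.

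With 250 bp on either side of the summit, the core was in 9 of 149 windows in COLO-205 (6.04%, interval 2.80 to 11.2) against 3.68% of all its distal peaks. In OVCAR-3 it was in 6 of 45 (13.3%, 5.05 to 26.8) against 4.14%, and in DU-145 in 2 of 22 (9.09%, 1.12 to 29.2) against 4.11%. The COLO-205 and DU-145 intervals include the share of all distal peaks and the OVCAR-3 interval does not. However, windows of one locus are not independent of each other, and some OVCAR-3 windows held the same letters. The ZNRF3 cores at chr22:29386242-29386270 and chr22:29426863-29426891 each lay within 250 bp of 2 OVCAR-3 summits and were counted at both. The OVCAR-3 interval therefore cannot tell whether its share differs from that of all distal peaks. The windows are G and C rich, with a median of 60.7% in the members' central windows in COLO-205 against 58.2% of all its distal windows, and 59.2% against 55.2% in OVCAR-3, and the part of base composition in these shares was not tested.

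The rest of the pathway was read from lists of other genes, which earlier results of these data may have shaped. Of 21 components that act upstream of or beside the targets, 20 had a promoter peak in OVCAR-3 and 18 in DU-145, while COLO-205 had 17 and SKOV-3 had 12, and 11 had one in all 4 lines, beside 25.2% of all genes. The shares of all genes in the same lines were 60.5%, 59.8%, 51.1% and 31.6%. None of the 21 lacked one in every line, and none had one in COLO-205 alone, beside 25.0% and 6.16% of all genes. Among those present in some lines, CTNNB1, which encodes beta-catenin itself, had −log10 q of 15.8 in COLO-205, 26.3 in DU-145 and 120.8 in OVCAR-3. APC, a scaffold of the destruction complex, had 26.3 in DU-145 and 54.7 in OVCAR-3, with no call in COLO-205 or SKOV-3. AMER1, which binds APC, had 43.7 and TCF7L1, a relative of TCF7, 10.1, in OVCAR-3 alone. NKD2, the relative of NKD1, had 22.1 in COLO-205 and 27.6 in DU-145 and was called in neither ovarian line, the same pattern as NKD1.

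LGR6, a relative of LGR5, had a promoter peak in COLO-205 (−log10 q of 10.1) and OVCAR-3 (7.08). The co-receptor gene LRP5 had 33.3 in COLO-205, 21.8 in DU-145 and 16.7 in OVCAR-3. The Dishevelled gene DVL2 had 9.91, 23.8 and 32.7 in these lines, and the tankyrase gene TNKS2 had 14.4, 36.4 and 78.8. TNKS, the other tankyrase, was called in DU-145 (19.1), OVCAR-3 (48.6) and SKOV-3 (11.5) and not in COLO-205.

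Of 13 other reported targets, 10 had a promoter peak in COLO-205, 8 in each of DU-145 and OVCAR-3, and 3 in SKOV-3. Beside the 51.1%, 59.8%, 60.5% and 31.6% of all genes, the count stood higher in COLO-205, and in the other lines it lay close to the share of all genes or below it. EPHB2 and CCND1 had one in all 4 lines, and TDGF1 in none. PROX1 (−log10 q of 20.8) and SMOC2 (8.23) had one in COLO-205 alone, as ASCL2 did, and DKK1 (32.3) in DU-145 alone. TNFRSF19 was called in COLO-205 (16.7) and DU-145 (9.37), and BAMBI (18.1 and 5.73) and EPHB3 (19.2 and 24.5) in COLO-205 and OVCAR-3. APCDD1 (8.96, 15.4 and 7.38), SOX9 (10.8, 14.7 and 11.1) and MYC (7.17, 32.4 and 26.2) were called in COLO-205, DU-145 and OVCAR-3. CD44 was called in DU-145 (10.2), OVCAR-3 (9.77) and SKOV-3 (9.57) and not in COLO-205, so that not every reported target was marked in the colon line.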

How the data were processed

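H3K27ac ChIP-seq peak lists of 4 cell lines, 1 library each, were used as deposited. Per the labels, reads were mapped to hg19 (GRCh37). The submitters' processing notes name Bowtie2 2.1.0 and MACS2 2.1.0.20150603, and the study's methods give a q-value limit of 0.001. The deposited values are fold enrichment (a linear ratio over local background) and the −log10 of the p-value and q-value, as the authors' peak caller wrote them. Joining of peaks closer than 350 bp is described in the study's methods, but the deposited lists hold closer neighbours (smallest gaps 49 to 51 bp), so peaks were used as listed and joining was an alternative.

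Transcript starts came from GENCODE 44 placed on GRCh37. The whole-number tag pileup at each summit was solved from fold and p-value within 0.001 on the −log10 scale, for at least 99.9% of each list. The number of tags per library was inferred from the lowest local background, with the narrowest peak standing for the fragment length and with 2.7e+09 mappable positions, so that scaled levels rest on these assumptions. Intervals are exact, at 95%, for counting error only, since tags are not known to be independent molecules. With 1 library per line no test was made, and no p-value is given. The scripts were tested on simulated data. Python 3.11.15, numpy 2.4.6, pandas 2.3.3, scipy 1.17.1, pysam 0.24.0, samtools 1.23.1 and matplotlib 3.10.9 were used.

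The members, gene lists and motifs were chosen with earlier results of these data known. All 10 genes are named in every line, with the distal peak of highest −log10 q per gene and line, every region of at least 3 lines, and the listed pathway genes called in some lines and not in others. The short core sites, the ASCL2 and ZNRF3 windows and the SP5 promoter were chosen after their values were seen. Alternatives were −log10 q limits of 5 and 10, equal numbers of peaks, joined peaks, other starts, a 20-kb distal window, an overlap of 50% and other motif settings. A count at the canonical start alone was added after seeing the data. Part of the marker results is not reported here.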

Additional observations from a re-analysis of the deposited data

How the results depend on the processing

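No paired analysis was possible because each line has 1 library, and none could be left out. With a −log10 q of at least 10, the members' distal peaks fell from 149 to 48 in COLO-205, from 22 to 1 in DU-145, from 45 to 13 in OVCAR-3 and from 1 to 0 for SKOV-3, and the regions in 1 line only were 43 in COLO-205, 0 in DU-145 and 8 in OVCAR-3. A promoter peak then remained at 6 members for COLO-205 and at 4 for DU-145, while OVCAR-3 kept 2 and SKOV-3 kept 1. The share of all genes at this limit is not given, so whether the members changed differently from all genes was not tested. With 14001 peaks in every list, distal peaks were 15 in COLO-205, 0 in DU-145 and 1 in OVCAR-3, regions in 1 line only were 14 in COLO-205, 0 in both DU-145 and OVCAR-3, and 1 for SKOV-3, and members with a promoter peak were 5 in COLO-205, 1 in DU-145 and 2 in OVCAR-3. Both settings keep fewer peaks by construction. Within 20 kb of the gene, 98 distal peaks were left in COLO-205 and 25 in OVCAR-3. Away from every GENCODE start, non-coding ones included, SKOV-3 had 0. The core share with 250 bp on either side was 6.04% in COLO-205 and 13.3% in OVCAR-3, in a wider window. COLO-205 had the most distal peaks in each setting of this paragraph that counts them. A −log10 q limit of 5, joined peaks, starts of coding transcripts, an overlap of 50% and the canonical start alone left each count they touched within 1.5 times its value. The letters CTTTGAA were in 2 of 149 COLO-205 windows (1.34%), inside the counting interval of the share with CTTTGAT, and in none of the other lines. The distal peaks of the members rest on few tags, and a gene without a call may carry acetylation below the limit of its list.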
